A study of Mus musculus with 58 samples.

Results

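Reads that could be assigned to the maternal or the paternal copy of a gene were compared within control (CTR) mouse morulae, the compacting preimplantation embryo of the days before the blastocyst forms. A gene entered when it lay on an autosome and had at least 20 allele reads in each of the 2 CTR morula libraries. This held for 7264 of 22988 autosomal genes in a table of 24077 genes. Of the others, 9396 had no allele read in either library, and for these a silent gene and a gene without assignable reads cannot be told apart. The CTR morulae, the morulae from mothers lacking Pcgf1 and Pcgf6 (matKO) and the CTR extraembryonic ectoderm (ExE) all had B6.129 mothers and PWK fathers, and the labels give the CTR genotype as wild type. CTR fully grown oocytes (FGO) were B6.129. Pcgf1 and Pcgf6 are subunits of Polycomb repressive complexes of the first class. The direction of the cross was always the same in the libraries with counts, so a lean to the mother and a lean to the B6.129 strain cannot be told apart. A lean to a strain includes any difference between the strains in how reads were assigned, which was not tested. Reciprocal-cross libraries were not used here. The labels do not say how many embryos went into a library or whether replicates were separate pools, so p-values measure the spread between these libraries.

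Most autosomal genes are transcribed from both parental copies, whereas imprinted genes are transcribed mainly from one. Most imprinted domains are set by DNA methylation that the egg or the sperm places at a control region, which acts on the genes around it directly or through a noncoding RNA. A second group depends on the Polycomb mark H3K27me3, which the egg places on the maternal copy, and these genes are known for paternal expression in preimplantation embryos and in extraembryonic tissue. RNA stored by the oocyte is also maternal in sequence, and allele reads cannot separate it from RNA made by the embryo from the maternal copy.

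The windows shown are the first 250 bases of the RefSeq promoter entry of genes that stand for the 3 kinds of lean described below, all on the plus strand of GRCm38.p6. Sfmbt2, a Polycomb-associated chromatin protein gene of the H3K27me3 group, is at chr2:10370201-10370450. Zrsr1, a paternally expressed splicing-factor gene that lies inside an intron of Commd1, is at chr11:22971755-22972004. Meg3, a maternally expressed long noncoding RNA, is at chr12:109540746-109540995. Capitals mark CpG, the dinucleotide that carries DNA methylation, and where a gene has several promoter entries the most upstream one was used. The last bases of the Sfmbt2 window lie inside the annotated gene, while the other windows end just before it.

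Sfmbt2: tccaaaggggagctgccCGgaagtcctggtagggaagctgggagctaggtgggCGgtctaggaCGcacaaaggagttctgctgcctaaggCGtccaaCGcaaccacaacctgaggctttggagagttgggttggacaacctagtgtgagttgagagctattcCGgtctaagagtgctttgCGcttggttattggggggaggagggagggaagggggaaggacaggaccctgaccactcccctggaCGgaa
Zrsr1: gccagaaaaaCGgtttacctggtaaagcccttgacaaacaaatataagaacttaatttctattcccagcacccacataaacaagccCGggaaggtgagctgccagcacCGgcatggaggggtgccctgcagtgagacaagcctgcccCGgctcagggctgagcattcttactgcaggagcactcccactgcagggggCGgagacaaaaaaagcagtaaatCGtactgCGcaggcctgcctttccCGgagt
Meg3: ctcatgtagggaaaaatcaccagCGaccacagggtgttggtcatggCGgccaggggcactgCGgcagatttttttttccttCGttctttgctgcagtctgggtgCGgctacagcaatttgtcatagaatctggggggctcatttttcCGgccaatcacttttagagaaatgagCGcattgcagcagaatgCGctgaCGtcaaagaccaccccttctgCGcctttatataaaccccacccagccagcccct

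These windows held 8, 8 and 10 CpG. Among the 5880 members with a promoter entry (80.9% of members) the median was 17 CpG, and 84.3% had at least 8 and 78.2% at least 10.

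The libraries held 1685510 and 1587445 allele reads. The mother supplied 51.4% of autosomal allele reads in both libraries, and that share was the zero point of every log2 ratio of maternal over paternal reads. Members had 40 to 5917 reads over both libraries, with a median of 262. The most-read gene, Timd2, held only 0.172% and 0.190% of all allele reads, with 1455 of 2898 and 1537 of 3019 reads maternal. The most-read gene of each CTR ExE library held 0.879% and 0.838%, and how the sources limited high counts, if at all, is not given. Many markers of early embryos passed the read minimum. Of 36 pluripotency genes 22 were members, including Nanog, Sall4 and Tfcp2l1, and of 32 trophectoderm genes 23 were, beside 7264 of 22988 autosomal genes. Of 21 primitive endoderm genes 10 were members and of 77 mitochondrial ribosomal protein genes 68. Passing the minimum therefore does not by itself identify the stage. Of 32 cumulus and granulosa cell markers 19 had no allele read and only Hsd17b1 and Amhr2 were members. The summed level of that list was 201 and 129 CPM (counts per 1000000 allele reads).

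The 2 libraries were close, and differed by more than counting error alone would give. The median difference of a gene's maternal share between them was 4.35 percentage points, and 2.25 points among the 2580 members with at least 400 reads. Across genes, which are not independent replicates, the shares correlated with r = 0.772, and with r = 0.829 at that depth. The chi-square of the difference between libraries averaged 2.25 per gene for the share and 4.39 for the total reads, where counting error alone gives about 1 if every read is an independent molecule, which the sources used here do not state.

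Of the 7264 genes 1781 (24.5%) leaned to one parent at an adjusted p under 0.05 in edgeR's quasi-likelihood test with the library as a block. Among them 960 (13.2%) leaned maternal and 821 (11.3%) paternal. All 1781 lay on the same side of the autosomal share in both libraries. The test used these same libraries with that share as its zero point, so this agreement follows largely from the selection of the calls. The count was 716 without replicate 1, 707 without replicate 2 and 924 with DESeq2, of which 659, 645 and 919 were among the 1781; a lone library was assumed to vary like the matKO libraries. The median maternal share was 70.1% among maternal calls and 33.9% among paternal calls, against 51.3% over all members, whose middle quartiles ran from 45.5% to 57.8%. Near balance was the commonest state: 3723 members (51.3%) had between 40% and 60% maternal reads in both libraries. Reads of nearly one copy alone were rare, with 103 genes at 90% or more maternal and 74 at 10% or less in both libraries. Of these, 18 had no paternal read and 11 had no maternal read at all.

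**Figure D1:**
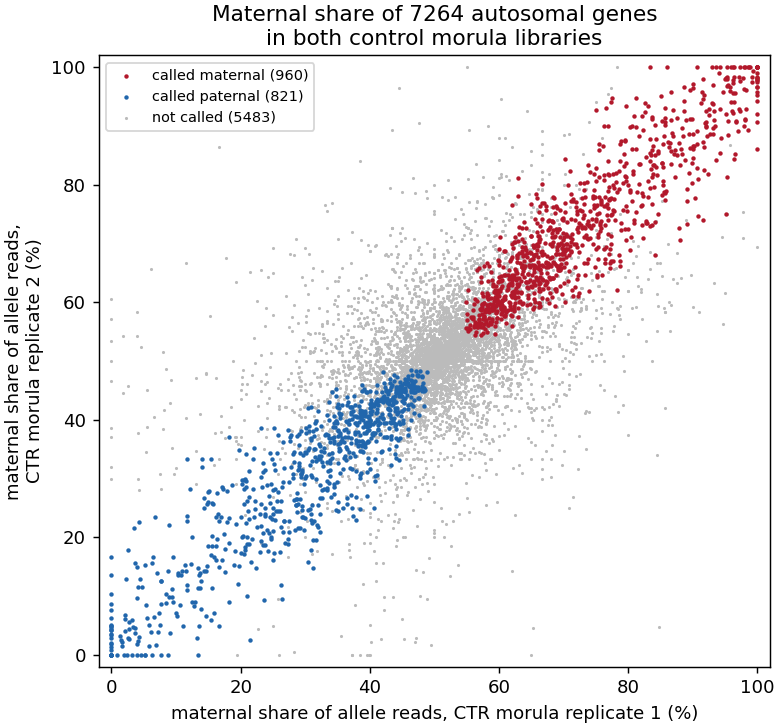
Maternal share of allele reads of each of the 7264 genes in CTR morula replicate 1 (x axis, %) and replicate 2 (y axis, %), coloured by call. The cloud centres near 51%, and the 960 maternal and 821 paternal calls stretch along the diagonal to 100% and 0%.

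Both the calls and the extremes varied with the number of reads. Calls made up 15% of the 922 genes with 40 to 79 reads and 34.9% of the 436 genes with at least 1280. The standard deviation of the share over genes was 20.3 points in the shallowest class and 6.16 points in the deepest. No gene with 640 or more reads was at 90% or more in both libraries, and only 1 was at 10% or less. At 1280 or more reads shares ran from 27.6% to 78.1%. The 405 members whose lower library had 20 to 24 reads had a median share of 50.9%, and the 512 genes just outside the minimum, at 15 to 19 reads, had 50.0%.

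**Figure D2:**
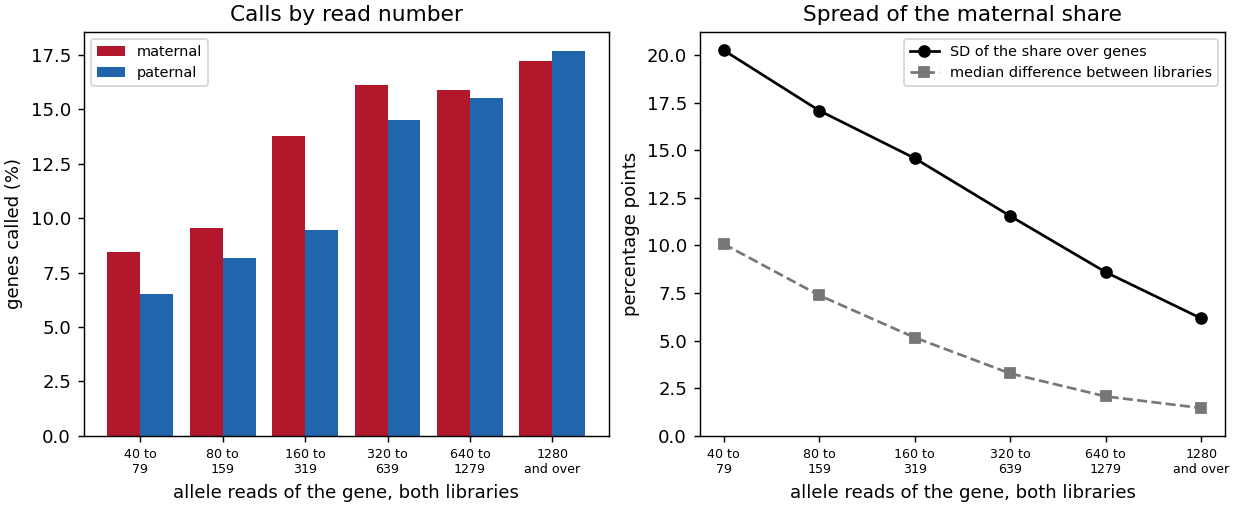
Left, percentage of genes called maternal and paternal (bars, y axis) by the gene's allele reads over both CTR morula libraries (x axis). Right, standard deviation of the maternal share over genes and median difference between the libraries (y axis, percentage points) in the same classes. Calls became more frequent from 15% to 34.9% across the classes while the spread of the shares narrowed from 20.3 to 6.16 points.

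Among genes with at least 100 reads in each library, several of the strongest paternal leans were at imprinted genes. Sfmbt2 had 1 of 125 and 0 of 167 reads maternal, that is 0.800% and a share that 0 of 167 reads limits to 1.80%. Zrsr1 had 0 of 103 and 1 of 113 reads maternal, and without strand its reads cannot be told from those of Commd1 around it. Snhg14, the long host RNA of the paternally expressed Snrpn region, had 2 of 120 and 2 of 127. Its annotated span covers Ube3a, and without strand their reads cannot be told apart where they overlap. Fkbp6, a gene needed in male meiosis and listed as imprinted, was the deepest of the strongly paternal genes with 17 of 437 (3.89%) and 9 of 481 (1.87%) maternal reads. Its log2 ratio of maternal over paternal reads was -5.17 ± 0.22 (SE; edgeR, adjusted p = 0.000979).

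Genes outside the imprinted lists leaned strongly too. Among genes with at least 100 reads in each library, clone names left out, none leaned as far as Sfmbt2 and Zrsr1. Their log2 ratios were -7.93 and -7.50, against -6.49 for Acp1. Acp1, a low-molecular-weight phosphatase gene, had 3 of 153 and 0 of 125 reads maternal. Its call was lost without either replicate (edgeR, adjusted p = 0.213 and 0.183). Rbm45, encoding an RNA-binding protein, had 0 of 136 and 6 of 117. Ptma, the gene of the nuclear protein prothymosin alpha, had 8 of 115 (6.96%) and 2 of 114 (1.75%). Ptma has 2 annotated pseudogene symbols, whose reads may be split from its own. Gpa33 had 7.18% and 3.85% maternal reads, Dok5 7.53% and 5.18%, and Hddc3 6.63% and 6.38%. Dync2li1, a dynein light intermediate chain gene, had 5.30% and 8.49% (log2 -3.85 ± 0.28; edgeR, adjusted p = 0.00152). Fsip1 was the least even of the 12 leading paternal genes, with 3 of 137 (2.19%) and 15 of 116 (12.9%).

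The 12 strongest maternal leans among genes with at least 100 reads in each library, clone names left out, were at genes outside the imprinted lists. Cdc16, a subunit of the anaphase-promoting complex, had 121 of 121 and 104 of 105 reads maternal. Rrp9, a protein of small nucleolar particles, had 168 of 169 and 139 of 140. Ndufa13 of respiratory complex I had 126 of 127 and 114 of 116. The transcription factor gene Msc had 174 of 174 and 272 of 278. Eno1, encoding the glycolytic enzyme enolase, had 174 of 174 and 144 of 149.

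The next maternal genes kept a measurable paternal share. Phgdh, the first enzyme of serine synthesis, had 96.5% and 98.3% maternal reads. Cenpw, a kinetochore protein gene, had 96.3% and 97.4% (log2 4.81 ± 0.22; edgeR, adjusted p = 0.000979). Mterf3 of mitochondrial transcription had 96.4% and 94.1%, and S100a11 had 94.7% and 95.8%. Rpl35a of the large ribosomal subunit had 97.4% and 92.5%, and the annotation has 6 pseudogene symbols for it. Ccdc126 had 91.7% and 95.3%. Fth1, the ferritin heavy chain gene, had 91.7% and 94.7% (log2 3.66 ± 0.24; edgeR, adjusted p = 0.00135). In each of these 7 genes both libraries lay above 91%.

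Of 32 listed genes of the H3K27me3 group 31 were in the table, 9 of them with no allele read, and 14 were members. Of the 14, 9 leaned paternal, 2 leaned maternal and 3 did not pass the test. Over all members 11.3% leaned paternal and 13.2% maternal. The median maternal share of the 14 was 28.2%, against 51.3% over all members. Slc38a4, an amino acid transporter gene, had 2 of 84 and 0 of 82 reads maternal, which limits the share in replicate 2 to 3.66%. The blood transcription factor gene Runx1 had 0 of 55 and 0 of 30. At these genes and Sfmbt2 nearly all reads of both libraries were paternal. Without replicate 1 the list had 7 calls, all paternal.

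A second set of H3K27me3 genes kept part of the maternal signal. Jade1, encoding a subunit of a histone acetyltransferase complex, had 30 of 147 (20.4%) and 31 of 153 (20.3%) reads maternal, with exact 95% intervals of 14.2% to 27.8% and 14.2% to 27.5%. Its log2 ratio was -2.05 ± 0.18 (edgeR, adjusted p = 0.00226). Epas1, the gene of hypoxia-inducible factor 2 alpha, had 27.5% and 20.9%. Gab1, an adaptor of receptor tyrosine kinases needed for the placenta, had 31.7% of 375 and 39.8% of 462 reads maternal, with a log2 ratio of -0.92 ± 0.14 (edgeR, adjusted p = 0.00888). Bbx, an HMG-box gene, had 62 of 391 (15.9%) and 20 of 280 (7.14%), so that its libraries differed by more than their intervals of 12.4% to 19.9% and 4.42% to 10.8%. Platr20 had 11.8% and 33.3%, and Rbms1 had 36.5% and 25.6%. Platr20 lost its call without replicate 1 and Rbms1 without either replicate (edgeR, adjusted p = 0.0651 to 0.219).

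The other 5 members of the list were not called paternal. Platr4, a long noncoding RNA, had 128 of 132 (97.0%) and 41 of 46 (89.1%) reads maternal and was called maternal, though not without replicate 1 (edgeR, adjusted p = 0.0774). Rftn2, a raft protein gene, had 36 of 41 and 32 of 44 and was called maternal too, though not without either replicate (edgeR, adjusted p = 0.219 and 0.0547). Smoc1, a secreted matrix protein gene, had 9 of 30 and 12 of 31 reads maternal and Enc1, an actin-binding protein gene, had 9 of 34 and 18 of 51. Both lay on the paternal side without passing the test (edgeR, adjusted p = 0.175 and 0.0788). Hes1, a Notch target, had 68 of 138 (49.3%) and 40 of 88 (45.5%), near balance. Below the read minimum, Mbnl2 had 0 of 26 and 0 of 16 and Otx2 1 of 26 and 2 of 15 reads maternal, examples named after their values were seen. With a minimum of 1 read in each library 21 listed genes were tested, of which 12 were called paternal and 2 maternal. Over all 11594 genes tested at that minimum 1372 were called paternal and 1439 maternal.

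Of 33 listed paternally expressed genes under DNA methylation imprinting 10 were members, of which 7 leaned paternal, none leaned maternal and 3 did not pass. Over all members 11.3% leaned paternal. The median maternal share of the 10 genes was 14.0%. Besides Zrsr1 and Fkbp6, Zdbf2 had 2 of 131 and 2 of 81 reads maternal, and Peg3, a zinc finger gene, had 0 of 38 and 1 of 24. Peg3 lost its call without replicate 1 (edgeR, adjusted p = 0.0691). Impact, a regulator of translation under amino acid shortage, had 48 of 411 (11.7%) and 36 of 303 (11.9%) reads maternal, a log2 ratio of -2.98 ± 0.10 (edgeR, adjusted p = 0.000979). Kcnq1ot1, the noncoding RNA that silences its neighbours on the paternal chromosome, had 33 of 204 (16.2%) and 23 of 143 (16.1%). Ddc, whose imprinted transcript is known from the heart, had 36.4% and 26.8%, and its call was lost without either replicate (edgeR, adjusted p = 0.163 and 0.311). The uncalled members were Sgce at 52.9% and 45.3%, Gnas at 51.8% and 50.4%, and Inpp5f at 47.7% and 26.5%. Sgce and Gnas thus had reads of both copies in similar number. The list holds Gnas as a whole gene, and counts per gene do not separate transcripts of 1 locus that may differ in parental expression.

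Of 40 listed maternally expressed genes under DNA methylation imprinting 12 were members, and 2 of them (16.7%) leaned maternal, which is near the 13.2% over all members. Their median maternal share was 60.4%, against 51.3% over all members. Meg3 had 28 of 29 and 22 of 23 reads maternal (adjusted p = 0.00950), and Dhcr7, the last enzyme of cholesterol synthesis, had 82 of 98 (83.7%) and 54 of 59 (91.5%). Without replicate 1 Meg3 lost its call, and without replicate 2 neither was called (edgeR, adjusted p = 0.0588 to 0.142). H13, a signal peptide peptidase gene, had 67.7% and 61.7% (adjusted p = 0.0682) and the histone chaperone gene Nap1l4 62.5% and 59.2% (adjusted p = 0.112). Igf2r, the receptor that clears insulin-like growth factor 2, had 27 of 40 (67.5%) and 22 of 42 (52.4%). Its interval in replicate 2 ran from 36.4% to 68.0%, so a lean of moderate size was not detectable at this depth. Mirg, in the same domain as Meg3, had 20 of 22 and 14 of 24 and was not called.

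**Figure D3:**
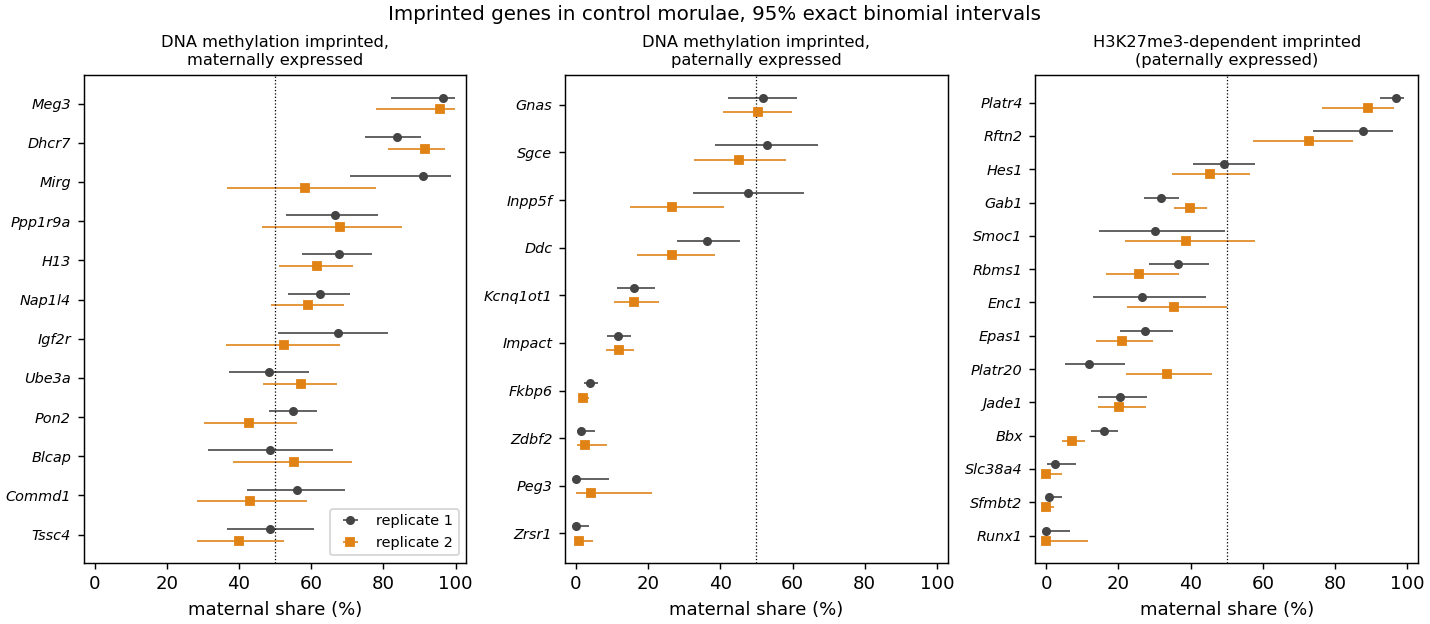
Maternal share of allele reads (x axis, %) of each imprinted gene that was a member, in CTR morula replicate 1 (circles) and replicate 2 (squares), with exact binomial 95% intervals. Left, genes listed as maternally expressed. Middle, paternally expressed genes under DNA methylation imprinting. Right, genes of the H3K27me3 group. Most genes of the middle and right panels lie left of the 50% line, while 10 of 12 in the left panel are not called.

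Oocyte and maternal-effect genes were split. Of 89 listed genes 19 were members, of which 8 leaned maternal and 2 paternal, with a median share of 52.3%. That is 52.6% called, beside 24.5% over all members. Dppa3, the maternal factor that protects the egg's DNA methylation, had 844 of 1271 (66.4%) and 875 of 1337 (65.4%) reads maternal, a log2 ratio of 0.87 ± 0.04 (edgeR, adjusted p = 0.00106). Oas1e had 91.5% and 87.2%. Tcl1, a coactivator of the kinase Akt, had 25 of 31 and 62 of 72, and Npm2, the oocyte histone chaperone, had 21 of 24 and 17 of 20. Plat, Ago2, Zfp57 and Uhrf1 were the other maternal calls. The list had 4 calls without replicate 1 and 5 without replicate 2, of which 2 and 3 were maternal. Tcl1, Npm2, Plat, Ago2 and Uhrf1 lost their calls without either replicate, and Zfp57 without replicate 1 (edgeR, adjusted p = 0.0541 to 0.229). The paternal calls of this list were Mael and Zp3. Mael, a protein of the piRNA pathway, had 4 of 52 and 4 of 46 reads maternal, and Zp3, a protein of the egg coat, had 4 of 78 and 13 of 85.

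Another 65 autosomal oocyte genes were below the minimum, and 38 of them had any read. Their summed reads were 120 of 146 maternal in replicate 1 (82.2%, exact 95% interval 75.01% to 88.02%) and 102 of 139 in replicate 2 (73.4%, 65.2% to 80.5%). The 19 members of the list summed to 56.7% and 57.3%, and all 15724 autosomal genes below the minimum to 50.1% and 50.9%. These sums were not tested against each other, and the intervals cover counting error only.

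The level of RNA in CTR FGO, given in CPM, was a readout that the rule did not use. Its median was 22.1 CPM for maternal calls, 13.5 CPM for paternal calls and 23.7 CPM for genes not called. When genes were ordered by oocyte CPM over morula CPM, paternal calls became rarer along the order, from 20.2% of the 846 genes with a ratio under 0.01 to 5.56% of the 90 genes with a ratio of at least 10. Maternal calls did not follow such an order, with 17.4% and 15.6% in the same classes and 9.38% to 14.2% in between. The median share moved little, from 50.2% to 52.2%. The genes at 10% or less maternal had a median of 1.24 CPM in oocytes, and those at 90% or more had 9.34 CPM. These classes differ in read number too, with medians of 235.5 and 93.5 reads in the lowest and highest ratio class, and the part of that was not tested. Oocyte CPM is per 1000000 counts not split by parent, while morula CPM is per 1000000 autosomal allele reads. The ratio therefore also depends on how many of a gene's morula reads could be assigned to a parent, and the part of that was not tested.

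Genes that mark the first cell lineages were mostly read from both copies. Of 23 trophectoderm genes 2 leaned maternal and 6 paternal (34.8% called, beside 24.5% over all members), with a median share of 49.4%. Their median was 575 reads, against 262 over all members. Dppa1 had 192 of 542 (35.4%) and 168 of 466 (36.1%) reads maternal, and the tight junction gene Cldn4 had 223 of 583 (38.3%) and 249 of 615 (40.5%). The endocytic receptor gene Lrp2 had a small paternal lean, at 47.4% of 1552 and 45.2% of 914 reads (log2 -0.29 ± 0.05; edgeR, adjusted p = 0.0144). Lrp2 lost its call without replicate 2 and Cldn4 without either (edgeR, adjusted p = 0.0947 to 0.160). Slc2a3, a glucose transporter gene, leaned the other way at 89.1% and 77.3%. Cdx2, the transcription factor that specifies the trophectoderm, had 28 of 49 and 20 of 45 and no call (adjusted p = 0.966).

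Of 22 pluripotency genes 5 leaned maternal and 3 paternal (36.4% called, beside 24.5% over all members), with a median share of 51.7%. Their median was 423.5 reads, against 262 over all members. Nanog, a core factor of the inner cell mass, had 167 of 265 (63.0%) and 217 of 368 (59.0%) reads maternal (log2 0.56 ± 0.11; edgeR, adjusted p = 0.0220), and the annotation has 2 pseudogene symbols for it. Spp1, encoding the secreted protein osteopontin, had 77.0% and 81.7%, the uridine phosphorylase gene Upp1 had 77.0% and 77.6%, and Dppa2 had 63.9% and 67.1%. Gdf3, a growth factor gene of the TGF-beta family, leaned paternal at 28.8% and 37.2%. Nanog lost its call without either replicate, Gdf3 without replicate 1, and Upp1 and Dppa2 without replicate 2 (edgeR, adjusted p = 0.0504 to 0.157). Of 10 primitive endoderm genes 2 leaned maternal and 1 paternal, near the share over all members. Gata6, the factor of that lineage, had 57.0% and 65.9%, the collagen-modifying enzyme gene P4ha2 had 81.7% and 88.2%, and the matrix protein gene Sparc had 37.6% and 42.6%. Gata6 lost its call without replicate 2 and Sparc without either (edgeR, adjusted p = 0.190 to 0.429). Dab2, which is on both lineage lists, was balanced at 1405 of 2793 (50.3%) and 1264 of 2611 (48.4%).

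Of 7 genes of the 2-cell stage 2 leaned maternal and 1 paternal, a number too small to set beside the 24.5% over all members. Arg2, an arginase gene, had 46 of 46 and 33 of 33 reads maternal, and Tdpoz2 had 22 of 22 and 42 of 42. Tdpoz2 belongs to a multigene family, so its counts are uncertain. Sp110, an immune nuclear body gene, had 5 of 32 and 5 of 27. Tdpoz2 lost its call without replicate 2 and Sp110 without either (edgeR, adjusted p = 0.0632 to 0.140). Pramel6 was balanced at 49.5% of 1805 and 49.2% of 1781 reads (adjusted p = 0.0673). Both cumulus and granulosa markers that were members leaned, Hsd17b1 to the mother at 91.6% and 98.0% and Amhr2 to the father at 35.0% and 24.4% (not called without replicate 2; edgeR, adjusted p = 0.134).

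Of 27 genes of the Polycomb complexes 7 leaned maternal and 1 paternal, with a median of 54.0%, beside 13.2% maternal and 11.3% paternal calls over all members. Suz12, a core subunit of the complex that writes H3K27me3, had 163 of 256 (63.7%) and 179 of 264 (67.8%) reads maternal. Skp1a, a subunit of ubiquitin ligases and of a PRC1 variant, had 80.2% and 78.7%. Usp16, a deubiquitinase of histone H2A, had 57.9% and 58.6%, and L3mbtl2 of the Pcgf6 complex had 64.8% and 67.2%. The other maternal calls were Ezh1, Pcgf6 and Ezh2, and the paternal call was the deubiquitinase gene Mysm1. Suz12 and Mysm1 lost their calls without replicate 2, and the other 6 without either replicate (edgeR, adjusted p = 0.0599 to 0.469).

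Of 18 genes of the DNA methylation machinery 4 leaned maternal and 1 paternal (27.8% called, near the 24.5% over all members). Zfp57, the zinc finger protein that holds imprints, had 107 of 142 (75.4%) and 120 of 173 (69.4%) reads maternal. Dnmt3b, a de novo methyltransferase, had 69.5% and 65.8%, and Uhrf1, the partner of the maintenance enzyme, had 73.2% and 80.3%. Zfp57 lost its call without replicate 1, and Dnmt3b and Uhrf1 without either (edgeR, adjusted p = 0.0727 to 0.229). Dppa3 was the remaining maternal call and Dnmt3l, the cofactor of de novo methylation, the paternal one, which was lost without either replicate (edgeR, adjusted p = 0.259 and 0.491).

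Housekeeping families were centred on balance but held single genes with strong leans. Of 65 cytoplasmic ribosomal protein genes 9 leaned maternal and 15 paternal (36.9% called, beside 24.5% over all members), with a median of 50.1%. Rplp0 had 250 of 268 (93.3%) and 264 of 285 (92.6%) reads maternal. Rpl24 had 15 of 168 (8.93%) and 17 of 172 (9.88%), Rpl23a 17.1% and 16.1%, and Rpl19 20.7% and 17.8%. The annotation has 13 pseudogene symbols for Rpl23a and 12 for Rpl19, so the counts of such genes are uncertain.

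Of 68 nuclear genes of the respiratory chain and ATP synthase 7 leaned maternal and 7 paternal (20.6% called, beside 24.5% over all members). Within 40% to 60% in both libraries were 55 of them, beside 51.3% of all members. Their median was 671 reads, against 262 over all members, and 31.4% of all members with 640 to 1279 reads were called. Besides Ndufa13, Atp5g1 had 77.6% and 75.7% and Ndufa6 66.6% and 66.4%, while Ndufb4 had 13.6% and 11.5%. Of 68 mitochondrial ribosomal protein genes 6 leaned maternal and 9 paternal (22.1% called), and 58 stayed within 40% to 60%. Their median was 882 reads. Mrpl15 had 64.5% and 64.8%, Mrps17 60.5% and 59.6%, Mrpl39 42.7% and 41.9% and Mrps27 32.3% and 33.4%. The libraries were close to each other at each of these 4 genes.

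Of 34 genes with symbols that begin with Psma, Psmb, Psmc or Psmd, nearly all of them proteasome subunits, 6 leaned maternal and 4 paternal (29.4% called, beside 24.5% over all members). Their median was 872.5 reads, against 262 over all members. Psmc3ip, which is no proteasome subunit, was among the maternal calls at 57.7% and 56.3%, and lost its call without either replicate (edgeR, adjusted p = 0.227 and 0.117). Psmb5, a catalytic subunit, had 91.8% and 90.4% maternal reads and Psma4 87.2% and 85.2%. Psmb9, the catalytic subunit of the immunoproteasome, had 32.6% and 28.1%, and the ATPase subunit gene Psmc1 had 28.1% and 30.0%. Of 182 genes named Zfp 25 leaned maternal and 17 paternal (23.1% called, near the 24.5% over all members), with a median of 52.2%. Zfp599 had 73.8% in both libraries, Zfp280b 91.8% and 86.5%, and Zfp947 91.4% and 95.8%, while Zfp850 had 28.9% and 31.4%.

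**Figure D4:**
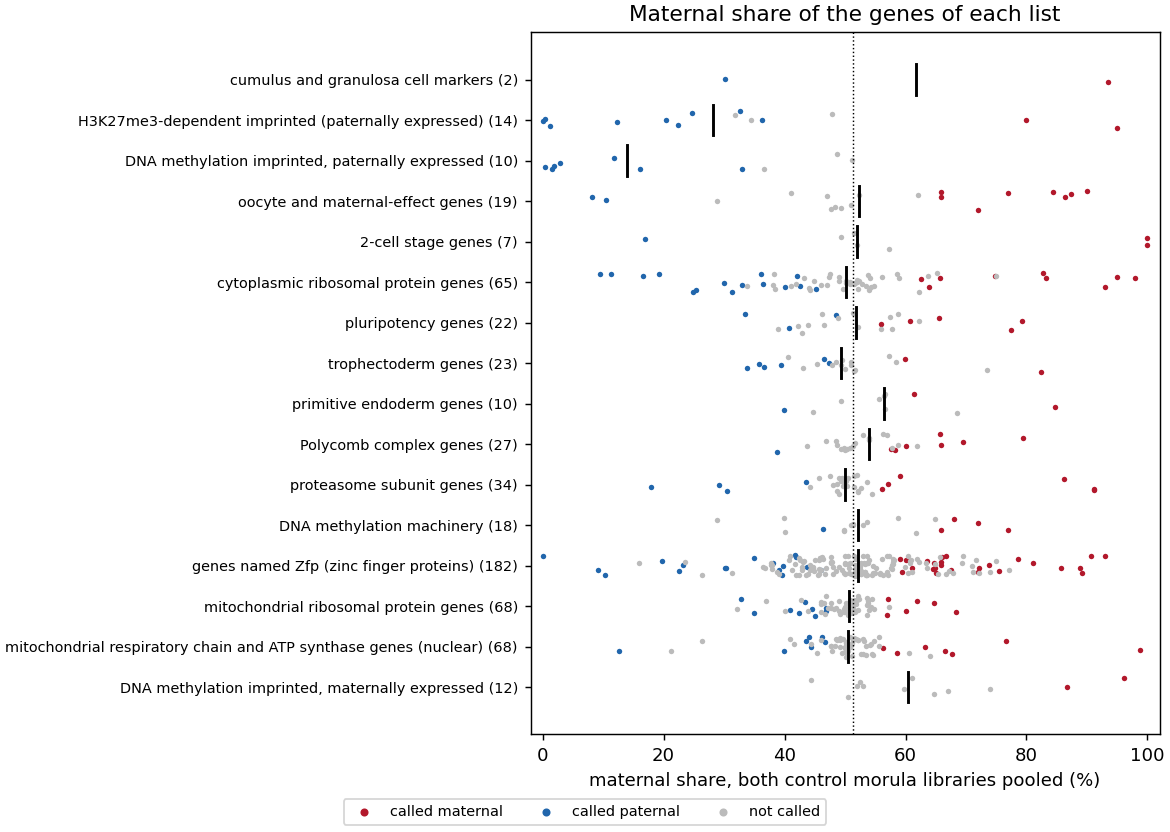
Maternal share of each gene (points, x axis in %, both CTR morula libraries pooled) by gene list (rows, with the number of members), coloured by call. The black bar is the list's median and the dotted line the median of all members, 51.3%. The paternally expressed imprinted lists sit left of the line at medians of 14.0% and 28.2%, and the housekeeping lists sit on it.

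Overlaps and named copies were counted beside the calls. A named copy is a pseudogene whose annotated symbol is the gene's own followed by -ps, so copies under other names were not counted. Another annotated gene overlapped 44.9% of all members, 48.5% of the genes at 90% or more maternal and 43.2% of those at 10% or less. A gene with a named pseudogene copy made up 3.18% of members, 4.79% of maternal calls and 4.75% of paternal calls. Such genes were 12 of the 103 at 90% or more maternal and 2 of the 74 at 10% or less. Without members that overlap another gene or have such a copy, 914 of 3861 genes were called, 489 maternal and 425 paternal.

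The share of calls varied between chromosomes. Chromosome 8 had 82 maternal calls (22.5% of 365 members) and 20 paternal calls (5.48%), with a median share of 53.7%. Chromosome 13 had 37 maternal and 50 paternal calls among 275 members. Where 2 neighbouring members were both called, they leaned to the same parent in 308 of 468 pairs (65.8%). By distance, this held for 65.6% of 32 overlapping pairs and 73.3% of 120 pairs that were 1 to 10000 bases apart. Farther apart, it held for 67.6% of 142 pairs up to 100000 bases apart and 59.2% of 174 pairs over 100000 bases apart. There were 30 runs of at least 3 neighbouring maternal calls and 20 such paternal runs. What unrelated neighbours would give, in pairs or in runs, was not tested. The longest maternal run held Ttll12, Sult4a1, Pnpla3, Samm50 and Parvb on chromosome 15 between 83575094 and 84315689 (GRCm38.p6). Paternal runs of 5 genes were Sbsn, Dmkn, Krtdap, Ffar3 and Cd22 on chromosome 7 and Tmem144, Glrb, Plrg1, Mnd1 and Trim2 on chromosome 3. These runs were named after their values were seen.

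The same measure in other libraries of the cross gave a second reading of these leans. In the 2 matKO morula libraries 6445 of the members had enough reads and 1476 (22.9%) were called, 774 (12.0%) maternal and 702 (10.9%) paternal. Of the CTR maternal calls tested there, 609 of 886 (68.7%) were called maternal again, which is 78.7% of the matKO maternal calls. Of the paternal calls 472 of 752 (62.8%) were called again, which is 67.2% of the matKO paternal calls. No gene was called to the opposite parent. Of the tested genes at 90% or more maternal 63 of 77 were in that class in matKO morulae too, and of those at 10% or less 32 of 48 were.

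Of the 9 paternal calls of the H3K27me3 group 3 were called again in matKO morulae and 6 were not, beside 472 and 280 of the 752 over all members. The difference between CTR and matKO morulae was not tested here. Called again were Sfmbt2, with 0.800% and 0% maternal reads in CTR morulae and 17.2% and 14.8% in matKO morulae, Slc38a4, with 2.38% and 0% in CTR morulae and 5.00% and 2.63% in matKO morulae, and Runx1, with 0 of 55 and 0 of 30 reads in CTR morulae and 3 of 34 and 11 of 44 in matKO morulae. Epas1, Rbms1, Platr20, Jade1, Bbx and Gab1 were not called again. Gab1, Bbx and Jade1 missed the threshold narrowly (edgeR, adjusted p = 0.0637, 0.0679 and 0.0727). Epas1, Rbms1 and Platr20 had adjusted p = 0.203, 0.613 and 0.898 (edgeR). A missed call does not show that a lean was lost. Jade1 had 20.4% and 20.3% maternal reads in CTR morulae and 37.8% and 43.2% in matKO morulae. Bbx had 15.9% and 7.14% in CTR morulae and 38.7% and 47.3% in matKO morulae. Gab1 had 31.7% and 39.8% in CTR morulae and 47.3% and 41.8% in matKO morulae. Fkbp6 had 3.89% and 1.87% in CTR morulae and 3.27% and 3.49% in matKO morulae, and Impact 11.7% and 11.9% in CTR morulae and 11.2% and 17.6% in matKO morulae.

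In CTR ExE, a tissue of the later conceptus that forms part of the placenta, 5699 members had enough reads and 1840 (32.3%) were called, 995 (17.5%) maternal and 845 (14.8%) paternal. Without scaling of the alleles 1228 and 670 were called, and without the library block 753 genes. Of the CTR morula maternal calls tested there, 461 of 716 (64.4%) were maternal in ExE as well and 22 were paternal. Those 461 were 46.3% of the ExE maternal calls. Of the paternal calls 297 of 596 (49.8%) were paternal again and 32 were maternal, and those 297 were 35.1% of the ExE paternal calls. Of the genes at 90% or more maternal 36 of the 47 tested were in that class in ExE too, and of those at 10% or less 11 of 19 were. The ExE libraries were deeper, at 4219202 and 4361832 allele reads.

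The difference of the lean between stages, tested as an interaction, passed for 697 of 5699 genes (12.2%), with a higher maternal share in morulae at 326 (5.72%) and a lower one at 371 (6.51%). The count was 213 without the library block, 294 and 385 without CTR morula replicates 1 and 2, and 377 and 363 without CTR ExE replicates 1 and 2. Among imprinted genes, Impact had 11.7% and 11.9% maternal reads in CTR morulae and 48.0% and 50.0% in CTR ExE, a difference in log2 ratio of -2.84 ± 0.30 (edgeR, adjusted p = 0.000260). Bbx had 15.9% and 7.14% in CTR morulae and 47.1% and 38.1% in CTR ExE, a difference of -2.53 ± 0.39 (adjusted p = 0.00253). Both genes were called paternal in morulae and not called in ExE. Smoc1 had 30.0% and 38.7% in CTR morulae and 3.57% and 1.23% in CTR ExE, a difference of 4.28 ± 0.70 (adjusted p = 0.00351). Igf2r had 67.5% and 52.4% in CTR morulae and 88.6% and 93.3% in CTR ExE (adjusted p = 0.0359).

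The difference did not pass the test at Sfmbt2 (adjusted p = 0.938) or Jade1. Sfmbt2 had 0.800% and 0% maternal reads in CTR morulae and 0.283% and 0.280% in CTR ExE. Jade1 had 20.4% and 20.3% in CTR morulae and 19.6% and 25.5% in CTR ExE (difference -0.20 ± 0.26; adjusted p = 0.696). For Gab1 the shares were 31.7% and 39.8% in CTR morulae and 13.1% and 20.7% in CTR ExE, and the difference missed the threshold (1.46 ± 0.36; adjusted p = 0.0808).

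The 5 genes with the smallest p of the difference were widely expressed genes of protein synthesis, chromatin and the cell cycle. Rpl19 had 20.7% of 352 and 17.8% of 342 reads maternal in CTR morulae. In CTR ExE it had 0.136% of 5154 and 0.271% of 5898. Set, a histone chaperone gene, had 31.1% and 30.2% in CTR morulae and 0.366% and 0.111% in CTR ExE. Ube2s, a ubiquitin-conjugating enzyme of the anaphase-promoting complex, had 32.7% and 32.1% in CTR morulae and 0.258% and 0.123% in CTR ExE. Its paternal call in morulae was lost without replicate 2 (edgeR, adjusted p = 0.0506). Fau, a ribosomal protein fusion gene, had 133 of 533 and 132 of 550 reads maternal in CTR morulae and 6.07% and 5.77% in CTR ExE. Rps19 had 65.1% and 66.3% in CTR morulae and about 90% in both CTR ExE libraries. At all 5 genes the lean had the same direction in both stages and lay nearer to balance in morulae. Some genes with many allele reads in CTR morulae had no allele read in CTR ExE, as given under the other observations. Whether allele counting differed between the libraries of the stages, and its part in the called differences, was not tested.

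**Figure D5:**
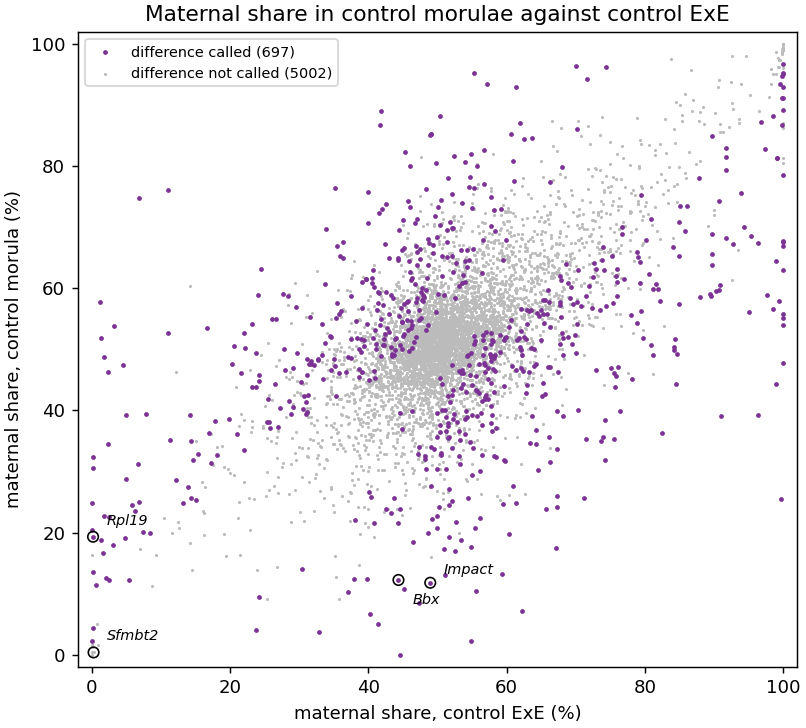
Maternal share of 5699 genes in CTR morulae (y axis, %) and CTR ExE (x axis, %), each with its 2 libraries pooled, and circles around 4 named genes. The 697 genes with a called difference lie on both sides of the diagonal, with Impact and Bbx low in morulae and near balance in ExE and Sfmbt2 near 0 in both.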

How the data were processed

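The 2 CTR morula RNA libraries were made with SMART-Seq v4 and Nextera XT, which do not mark strand, per the labels' protocols. Values are raw counts per gene and parent as deposited by the authors, per the file headers. The submitters' processing notes list Trim Galore 0.6.4, STAR 2.7.3 and RSEM 1.3.1 among the tools and mm10 among the builds. How a read was given to one parent, and whether duplicates were removed, is not given in the sources used here. Depth was 1685510 and 1587445 allele reads. Exact Clopper-Pearson 95% intervals and the limit of 3 counts behind a count of 0 cover counting error only.

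Symbols were matched to RefSeq (GRCm38.p6), 23975 by symbol and 81 by synonym, and 21 were unmatched. Maternal and paternal counts were compared with edgeR 4.0.16 (robust quasi-likelihood test, R 4.3.3) with library as block, each column scaled by its autosomal total, and Benjamini-Hochberg adjustment over 7264 genes. Both alleles of a library come from the same tube, which is where the pairing comes from. The same fit was used for matKO morulae and CTR ExE, and the difference between stages was an interaction in 1 fit of 8 columns. Simulated counts of 7264 genes for the CTR morula comparison recovered 63% of 2-fold and 100% of 4-fold leans, with 10 false among 173 calls. Every simulated gene had the same dispersion and fewer genes leaned than were called in the data, so the false calls of the data may differ. Members and the 16 gene lists were chosen with earlier results of these data known. Named genes are the 12 calls with the largest lean to each parent and at least 100 reads in each library, clone names left out, up to 4 genes of each list with the smallest p, fixed imprinted and lineage genes, and the 5 genes with the smallest p of the stage difference. Other genes were named after their values were seen. Alternatives were another scaling, read minimum, test or set of libraries, and DESeq2 1.42.0. A further alternative, without overlapping genes and genes with a pseudogene symbol, was chosen after seeing the data.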

Additional observations from a re-analysis of the deposited data

Results flagged for a closer look

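The lean differed between CTR morulae and CTR ExE at 697 of 5699 genes (12.2%) by the interaction test. Of the 62 named genes that could be tested, 31 were among them. The named genes include by rule the 5 with the smallest p of this difference and the largest leans. Their count is therefore no rate to set beside 12.2%. Values in brackets are differences of the log2 maternal over paternal ratio for these 31 genes, CTR morula minus CTR ExE (edgeR). The ratio was higher in morulae, at 17 of them, for Ube2s (7.82), Set (7.44), Rpl19 (6.82), Ptma (4.32), Smoc1 (4.28), Rpl23a (3.53), Ndufb4 (2.71), Slc2a3 (2.58), Fau (2.37), P4ha2 (1.71), Dab2 (1.63), Upp1 (0.78), Ndufa6 (0.69), Dnmt3b (0.69), Cldn4 (0.53), Mrpl39 (0.42) and Mrpl15 (0.31). It was lower in morulae, at 14 of them, for Fth1 (-6.51), Mterf3 (-6.28), S100a11 (-5.52), Cenpw (-4.70), Rpl35a (-4.56), Dync2li1 (-3.21), Impact (-2.84), Igf2r (-2.65), Bbx (-2.53), Rps19 (-2.19), Rpl24 (-1.61), Skp1a (-1.53), Mrps27 (-1.41) and Psmb9 (-1.20). Where ExE had almost no read of one parent, the size of the difference depends on the prior count of the fit and is no bound.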

How the results depend on the processing

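The CTR morula calls numbered 1781, 960 maternal and 821 paternal. They numbered 1728 (1079 and 649) without scaling of the alleles, 1539 to 1904 with read minimums of 50 and 10, and 1227 without the replicate block, of which 1200 were among the 1781. A minimum of 1 read gave 2811 calls over more genes, DESeq2 924 and a demanded 2-fold lean in both libraries 842. The set without overlapping genes and genes with a pseudogene symbol gave 914 calls of fewer genes. The cause of the DESeq2 count was not tested. With 1 library left out (the lone one fitted with the matKO libraries and assumed to vary like them), 716 genes were called without replicate 1 and 707 without replicate 2, of which 659 and 645 were among the 1781. The matKO morula count of 1476 was 1055 without the replicate block, and the CTR ExE count of 1840 was 753 without the replicate block, with 63.5% instead of 54.1% of calls maternal. Without scaling, 64.7% of the ExE calls were maternal. The stage difference numbered 697, and 213 without the replicate block; it numbered 294 without CTR morula replicate 1, 385 without CTR morula replicate 2, 377 without CTR ExE replicate 1 and 363 without CTR ExE replicate 2. Over 1310 pairs of a named gene and an alternative, 1232 kept direction and side of the threshold, 74 lost the call, 2 gained it and 2 changed sign, both at Cdx2, which had no call, with a log2 ratio of 0.053 without scaling and of -0.40 to 0.33 without replicate 1 or 2. Of the named genes 15 lost the call without replicate 1 and 20 without replicate 2, 11 of them without either. At 40 to 79 reads 15% of genes were called, against 34.9% at 1280 or more; these classes hold different genes, and the part of depth was not tested.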

Other observations

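X-linked genes, which the member rule leaves out, had a maternal share of 75.3% and 74.1% in the CTR morula libraries, 62.1% and 57.7% in the matKO morula libraries and 95.8% and 96.4% in the CTR ExE libraries. The labels do not give the sex of the embryos.

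Some genes with many allele reads in CTR morulae were listed at 0 allele reads in both CTR ExE libraries. They included Eno1 with 174 and 149 reads, Msc with 174 and 278, Psmb5 with 147 and 157, Hddc3 with 166 and 188 and Rbm45 with 136 and 117.

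Acp1 had 1.96% and 0% maternal reads in CTR morulae and 0.877% and 35.5% in matKO morulae, so that 1 matKO library stood apart at this gene. Dppa1 had 35.4% and 36.1% maternal reads in CTR morulae and 9.89% and 15.3% in matKO morulae.

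Aig1, at 597 CPM in oocytes, had 1 of 27 reads maternal in both CTR morula libraries and was called paternal. It was chosen after its values were seen.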
